A study of Mus musculus with 3 samples.

Results

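The mature dendritic cells of injured mouse liver that carry Ccr7 and Ccl22 were examined in single cells. They were selected on the UMIs of 4 genes: a cell barcode with at least 200 detected genes was taken when at least 2 of Ccr7, Ccl22, Fscn1 and Il12b had a UMI and none of Cd3d, Cd3e and Cd79a had one. A UMI is a random tag that marks 1 captured RNA molecule. By this rule 77 of 25263 cells were mature dendritic cells, 43 of 10386 in control, 21 of 9253 at 1 day post injury (p.i., here day 1) and 13 of 5624 at 7 days post injury (here day 7). Livers of adult C57BL/6 mice had been profiled by Drop-seq, in which single cells are captured in droplets with barcoded beads. The injury was irreversible electroporation (IRE), electric pulses that kill the cells of a confined area, given per the labels as 8 pulses of 50 ms at 75 V and intervals of 1 s, while the methods name a lower voltage. Control mice are labelled as sham operated and killed after 1 day, whereas the methods describe the same area of livers without injury. A biopsy punch of 4 mm was taken, and 3 livers were digested with dispase, collagenase and DNase and pooled into each library. Each condition is thus 1 library, there was no test across animals, and all intervals are 95% intervals that cover counting error only.

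Mature dendritic cells are commonly described as cells that have taken up antigen and travel to lymph nodes, neither of which was measured here. They shut down antigen uptake, raise CCR7, the receptor that guides them along CCL19 and CCL21, and display antigen on MHC molecules together with costimulatory ligands. CCL22 attracts T cells through CCR4, FSCN1 (fascin) bundles actin in their long processes, and IL12B is the shared subunit of IL-12 and IL-23. Signals through NF-kB, the transcription factor family that includes RELB and REL, drive much of this programme.

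The promoters of 3 genes of this programme are shown, because they hold a general NF-kB motif. The motif, GGGA followed by any 4 bases and CC, was searched on both strands in the 300 bases from 250 before to 50 after the start of transcription, in RefSeq promoters of GRCm38.p6. It was found in 6810 of 32851 promoters of that length (20.7%). Capitals mark the match, and each sequence is written 5′ to 3′ in the direction of the gene. Ccl22 lies on the plus strand, with the window chr8:94745434-94745733 and a match that starts 131 bases before the start of transcription. Il4i1, an amino acid oxidase that restrains T cells, lies on the plus strand with the window chr7:44836038-44836337 and a match at 199 bases before the start. Nfkbia, the inhibitor of NF-kB that NF-kB itself induces, lies on the minus strand with the window chr12:55492598-55492897 and matches at 212 and 29 bases before the start.
Ccl22: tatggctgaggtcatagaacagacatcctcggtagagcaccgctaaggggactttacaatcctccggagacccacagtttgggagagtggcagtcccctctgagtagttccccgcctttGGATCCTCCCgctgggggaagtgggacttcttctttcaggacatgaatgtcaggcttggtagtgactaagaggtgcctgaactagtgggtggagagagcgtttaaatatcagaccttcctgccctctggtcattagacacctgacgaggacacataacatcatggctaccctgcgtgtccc
Il4i1: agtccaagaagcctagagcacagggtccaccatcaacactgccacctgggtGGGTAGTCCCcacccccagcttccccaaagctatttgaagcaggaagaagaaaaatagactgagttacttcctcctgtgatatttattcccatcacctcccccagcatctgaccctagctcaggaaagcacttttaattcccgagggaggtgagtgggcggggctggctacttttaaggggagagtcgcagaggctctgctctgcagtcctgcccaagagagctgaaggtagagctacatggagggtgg
Nfkbia: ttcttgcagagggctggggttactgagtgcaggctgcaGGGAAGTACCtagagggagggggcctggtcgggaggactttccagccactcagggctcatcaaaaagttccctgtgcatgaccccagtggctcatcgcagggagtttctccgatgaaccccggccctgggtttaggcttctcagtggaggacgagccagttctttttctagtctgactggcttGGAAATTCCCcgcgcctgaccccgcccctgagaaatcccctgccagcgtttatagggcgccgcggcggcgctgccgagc
Among the 4 genes of the rule, 3 had a promoter in the RefSeq table and only that of Ccl22 held the motif. Those of Fscn1, Il12b, Ccl17, Traf1 and Samsn1 did not hold it. Of the 12 genes of the NF-kB list with a promoter, 7 held it (58.3%), as did 10 of 28 genes (35.7%) called higher in mature than in other dendritic cells, with the genes of the rule left out. By gene, 22.9% of 27025 genes held it. A match is a stretch of letters and not a site of binding.

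The libraries held 10032574 UMIs in control, 8563287 on day 1 and 4580021 on day 7. The labels estimate 1000 cells per tagmented library, while 46331 barcodes were deposited. The library on day 7 stood apart, with 4.10% mitochondrial UMIs against 20.5% in control and 21.7% on day 1. In the mature dendritic cells the values were 15.7% in control, 19.1% on day 1 and 2.86% on day 7, and the part of this gap in the results on day 7 was not tested beyond the scalings given there. Between 44 and 149 cell barcodes were shared by a pair of libraries, and none of them belonged to a mature dendritic cell.

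The mature dendritic cells made up 0.414% of control cells (0.300 to 0.557), 0.227% of cells on day 1 (0.141 to 0.347) and 0.231% on day 7 (0.123 to 0.395). The ratio to control was 0.548 (0.309 to 0.944) on day 1 and 0.558 (0.275 to 1.06) on day 7. The share on day 1 was therefore below control beyond counting error, and the interval on day 7 included 1. The median depth of mature dendritic cells was 712, 735 and 746 UMIs in control, on day 1 and on day 7, against 594, 509 and 456 UMIs in the other cells. When each cell was thinned to 300 UMIs, 23, 11 and 7 cells remained, or 0.226%, 0.123% and 0.138% of cells. The ratios in thinned cells were 0.544 (0.239 to 1.16) and 0.610 (0.221 to 1.47), so that neither difference was beyond counting error at equal depth.

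Among dendritic cells alone, the order was different. The comparison cells were those of a cDC1 gate, with at least 2 of Clec9a, Xcr1, Wdfy4 and Naaa, and of a cDC2 gate, with at least 2 of Cd209a, Clec10a and Mgl2, both outside the rule. cDC1 and cDC2 are the main classes of conventional dendritic cells. The cDC1 gate held 226, 110 and 13 cells in control, on day 1 and on day 7, and the cDC2 gate 43, 9 and 6 cells. Mature dendritic cells were 13.8% of the 312 dendritic cells of the control (10.2 to 18.1), 15.0% of 140 on day 1 (9.53 to 22.0) and 40.6% of 32 on day 7 (23.7 to 59.4). The ratio to control was 1.09 (0.614 to 1.87) on day 1 and 2.95 (1.45 to 5.58) on day 7. On day 7 the mature group and the cDC1 gate thus held 13 cells each. Of these 13 mature cells, 9 had at least 3 neutrophil markers. Without cells with 3 or more UMIs of markers of other cell classes, 30, 8 and 1 mature cells were left. The share among dendritic cells was not taken without such cells.

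**Figure D1:**
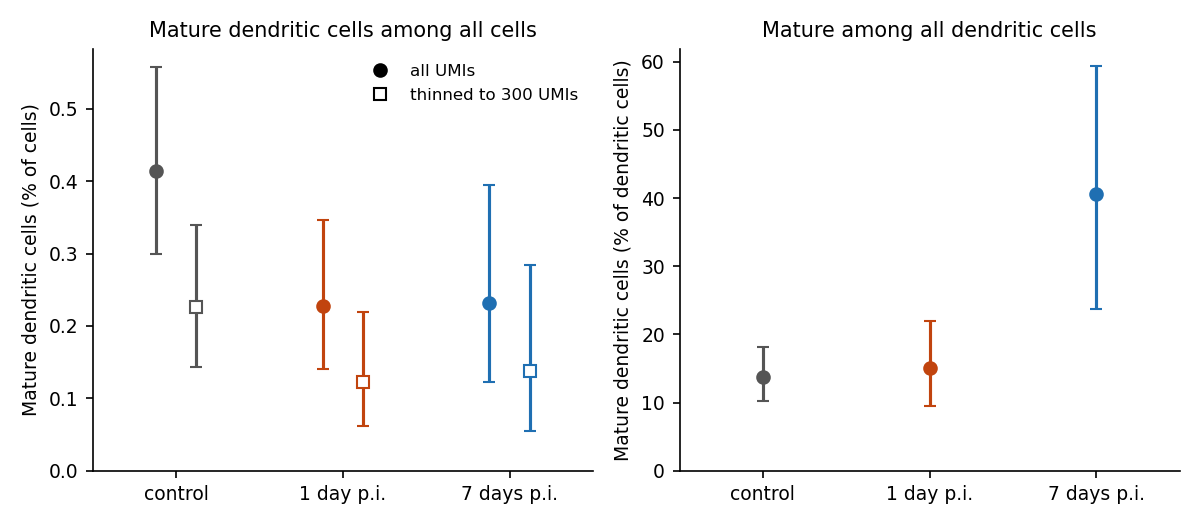
Mature dendritic cells as a percentage of all cells (left, filled circles for all UMIs and open squares after thinning each cell to 300 UMIs) and of all dendritic cells in the 3 gates (right), per library, with exact binomial 95% intervals as bars. The share of all cells was 0.414% in control and 0.227% and 0.231% after injury, while the share of dendritic cells was 40.6% on day 7 against 13.8% in control. Of the 13 mature cells on day 7, 9 had at least 3 neutrophil markers.

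The same rule found cells among other classes. Of cells with at least 3 endothelial markers, 1 of 1043 in control (0.0959%), 3 of 2112 on day 1 (0.142%) and 0 of 46 on day 7 (up to 7.71%) met it. Of cells with at least 3 macrophage markers, 4 of 2868 (0.139%), 5 of 3608 (0.139%) and 0 of 504 (up to 0.729%) met it. Of cells with at least 3 neutrophil markers, 0 of 546 (up to 0.673%), 0 of 97 (up to 3.73%) and 9 of 3564 (0.253%) met it. These 9 cells belong to the 13 mature dendritic cells on day 7. The share of all cells on day 7 was thus no higher than that in cells with neutrophil markers, and the interval of the share on day 1 reached down to that of endothelial cells. Barcodes under 200 genes met the rule for the markers in 2 of 5318, 1 of 8908 and 0 of 6842 cases (up to 0.0539%).

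The 4 genes of the rule are described without comparison, since they chose the cells. Ccr7 had 62 UMIs in 33 control cells, 24 UMIs in 17 cells on day 1 and 20 UMIs in 10 cells on day 7. Ccl22 had 57 UMIs in 18 cells, 22 in 9 and 9 in 7 cells, and Fscn1 had 35 UMIs in 21 cells, 13 in 12 and 13 in 8 cells. Il12b was the most abundant in control, with 130 UMIs in 27 cells and up to 33 in 1 cell, followed by 35 UMIs in 12 cells and 11 UMIs in 4 cells. Ccr7 with Fscn1 alone was the most frequent combination in every library, in 10, 6 and 4 cells. All 4 genes were found in 2 control cells and in none after injury. Within control, 80.2% of all UMIs of Il12b and 55.9% of those of Ccl22 were in mature dendritic cells, against 22.3% of those of Fscn1.

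Cells just outside the rule, with UMIs of 1 gene, numbered 197, 210 and 37 in control, on day 1 and on day 7. Those just inside, with 2 genes, numbered 32, 13 and 10. A list of 22 other genes known from mature dendritic cells, with Samsn1, Cd63, Serpinb6b and Cst3 among them, took 0.563% of UMIs outside and 2.87% inside in control. It took 0.363% and 1.96% on day 1, and 0.867% and 3.29% on day 7. Cells with 3 or 4 genes had 3.81%, 3.73% and 4.31%. As a ratio, the step between 1 and 2 genes was larger than that between 2 and more in every library. Cst3 held 772, 303 and 172 of the 1135, 408 and 329 UMIs of this list in mature dendritic cells. Since other dendritic cells also carry Cst3, the step does not set mature apart from other dendritic cells.

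The group was checked against genes known from dendritic cells. Cst3, the cystatin used as a dendritic cell marker, was found in 42 of 43, 19 of 21 and 13 of 13 cells, and MHC class II genes in 42, 21 and 12. In cells thinned to 300 UMIs, Cst3 was found in 88.1%, 81.0% and 100% of mature dendritic cells and in 21.0%, 26.5% and 27.3% of cells with at least 3 endothelial markers. MHC class II genes also had a UMI in 83.1%, 75.0% and 68.7% of the cells without any gene of the rule, so that their presence does not set the group apart. The list of 22 genes had a lowest, median and highest count per cell of 3, 24 and 95 UMIs in control, 1, 19 and 51 on day 1 and 9, 24 and 49 on day 7. The marker genes of other classes were mostly low: T and NK genes had 3, 7 and 0 UMIs in all, B cell genes 4, 5 and 0, mesenchymal genes 5, 2 and 0, cholangiocyte genes 0, 6 and 0, and the mesothelial and mast cell genes none. Genes of plasmacytoid dendritic cells had 11, 6 and 2 UMIs, those of monocytes 21, 7 and 8, and haemoglobin genes 2, 0 and 0.

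Markers of 4 classes were not low in every cell. Macrophage genes had 100 UMIs in control (0.278% of UMIs), 72 on day 1 (0.450%) and 1 on day 7 (0.0107%), and a control cell held 40 of them. Endothelial genes had 13, 48 and 0 UMIs, with up to 16 in 1 cell on day 1. Neutrophil genes had 25 and 9 UMIs in control and on day 1 and 335 on day 7 (3.59%), where each of the 13 cells held 2 or more, the median was 6 and the highest was 172. Hepatocyte genes had 15, 170 and 2 UMIs, and on day 1 they were in all 21 cells with 1 to 26 UMIs. The other cells of the libraries had 0.398%, 0.0658% and 4.20% neutrophil UMIs and 0.127%, 2.69% and 0.0255% hepatocyte UMIs, so that both lists were highest at the same time point inside and outside the group.

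In 3 control cells, 5 cells on day 1 and 3 cells on day 7 the markers of other classes outnumbered the list of 22 genes, which goes against the label of the group. The other classes counted were macrophage, neutrophil, T and NK, B, endothelial, mesenchymal and cholangiocyte genes, with monocyte and hepatocyte genes not among them. These 11 cells are called mixed here. They held 9.77%, 33.1% and 30.4% of the UMIs of the group, with 66 of the 100 macrophage UMIs in control, 39 of the 48 endothelial UMIs on day 1 and 247 of the 335 neutrophil UMIs on day 7. Without them 40, 16 and 10 cells were left, or 0.385%, 0.173% and 0.178% of cells. Whether they were doublets, cells with free RNA or other cells was not tested.

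**Figure D2:**
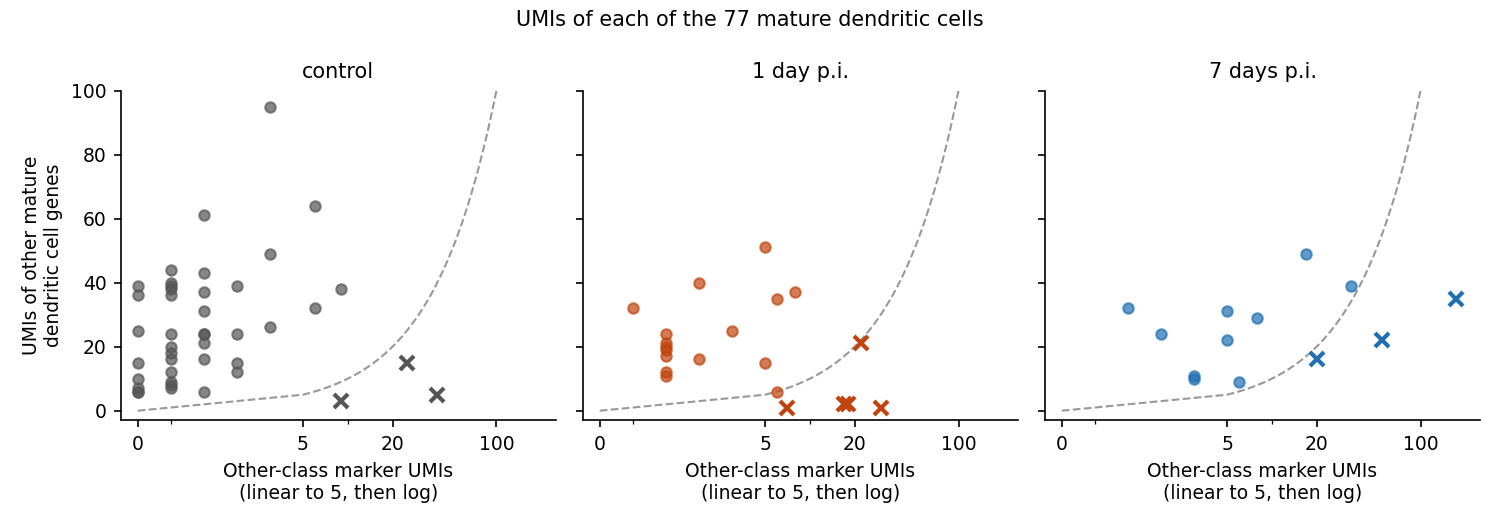
Each of the 77 mature dendritic cells by its UMIs of other-class markers (x axis, linear to 5 and logarithmic above) and of the list of 22 other mature dendritic cell genes (y axis), per library. The dashed curve marks equal counts, and crosses below it mark the 3, 5 and 3 mixed cells. On day 7 all 13 cells have 2 or more other-class UMIs.

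The mature dendritic cells were first compared with the other dendritic cells of the same library. These were 226, 110 and 13 cells of the cDC1 gate and 43, 9 and 6 of the cDC2 gate. The ratios are thus mainly against cDC1 cells. Called were genes whose share of UMIs differed at least 2-fold in each library in which both sums together had 20 or more UMIs, in at least 2 libraries. Of 864 genes, 38 were higher (4.4%) and 70 were lower (8.1%). In every such library the counting interval left out 1 for 27 of the higher and 19 of the lower genes. The cDC1 gate alone held 238069 UMIs in control and 106518 on day 1, against 35958 and 16015 in mature dendritic cells. Lower genes could thus pass the minimum of 20 UMIs through the other dendritic cells alone. Plbd1, Ppt1, Ckb, H2-DMa and H2-DMb1 did so. The median ratio of all genes was 0.811 in control, 0.833 on day 1 and 0.787 on day 7. Il12b, Ccl22 and Ccr7 were among the higher genes by construction of the rule, as were Xcr1, Naaa and Clec9a among the lower genes by construction of the comparison gate. The gene lists used below were chosen with earlier results of these data known, so that counts of their called genes are descriptions.

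Among the chemokines, Ccl5 was the most abundant outside the rule. Ccl5, which attracts T cells and monocytes, had 165 UMIs in 24 of 43 control cells, 47 UMIs in 9 of 21 cells on day 1 and 50 UMIs in 7 of 13 cells on day 7. It was 43.1-fold (28.9 to 66.3), 48.5-fold (21.8 to 127) and 39.3-fold (10.3 to 334) above other dendritic cells. Single cells weighed heavily, since 1 control cell held 59 of these UMIs and 1 cell on day 7 held 31, and in control cells with at least 3 genes of the rule the ratio was 9.35. In cells thinned to 300 UMIs, Ccl5 was found in 45.2%, 23.8% and 38.5% of mature dendritic cells, against 2.86%, 6.51% and 4.55% of cells with at least 3 endothelial markers, whose median depth before thinning was 611, 621 and 663 UMIs. Cxcl16, a membrane-bound ligand of CXCR6 on T and NK cells, had 35, 9 and 12 UMIs and was 7.79-fold (4.72 to 12.9), 5.00-fold (1.89 to 12.6) and 9.44-fold (2.10 to 86.9) higher.

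Ccl17, the second ligand of CCR4 beside Ccl22, was found in far fewer cells. It had 25 UMIs in 6 control cells, 4 UMIs in 1 cell on day 1 and 5 UMIs in 3 cells on day 7. The ratio to other dendritic cells was 15.8 (7.64 to 34.5) in control and 4.13 (0.886 to 16.2) and 7.87 (0.880 to 372) after injury, where the intervals included 1. Cells with UMIs of both Ccl17 and Ccl5 numbered 3, 0 and 1. The list of chemokines and cytokines without the rule genes was 8.04-fold (6.68 to 9.68), 5.17-fold (3.73 to 7.13) and 5.36-fold (3.30 to 9.06) higher, and of its 17 genes 3 had enough UMIs and 2 were called higher, Ccl5 and Cxcl16, against 4.4% of all genes.

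Of the costimulatory genes, Cd83 carried the list. Cd83, which stabilizes MHC class II and CD86 at the surface, had 31 UMIs in 20 cells, 19 in 9 cells and 7 in 6 cells. It was 18.1-fold (9.18 to 37.6), 15.2-fold (6.57 to 38.3) and 11.0-fold (1.42 to 496) above other dendritic cells and was the only one of the 9 list genes with enough UMIs. Cd40, the receptor for T cell help, had 13, 3 and 1 UMIs, and Cd86 had 4, 1 and 1. Cd80 had 1 UMI in control, 0 on day 1 and 2 on day 7. CD28 ligands were therefore hardly detectable at this depth in mature dendritic cells.

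Genes that restrain immune responses were found beside the costimulatory ones. Il4i1 had 27 UMIs in 19 control cells, 5 in 4 cells and 4 in 4 cells, against 1, 1 and 0 UMIs in the other dendritic cells. Its ratio was 204 (33.7 to 8369) in control, 36.1 (4.04 to 1708) on day 1 and at least 2.10 on day 7, where the other dendritic cells were at 0 and a floor of 3 counts over the group was used. Socs2, a suppressor of cytokine signalling, had 23, 6 and 6 UMIs and was 87.1-fold (21.5 to 762), 21.7-fold (3.87 to 220) and at least 3.15-fold higher. Cd274, which encodes PD-L1, had only 3, 0 and 3 UMIs, and Cd200 had 5, 6 and 1. The summed list was 18.8-fold (11.6 to 31.2), 34.3-fold (11.4 to 139) and 25.2-fold (3.91 to 1056) higher, although none of its 9 genes had enough UMIs for a call in at least 2 libraries.

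The genes of migration and of the cytoskeleton were higher in sum by 3.44-fold (2.84 to 4.14), 2.60-fold (1.81 to 3.68) and 2.36-fold (1.37 to 4.14). Cacnb3, a calcium channel subunit, had 19 UMIs in 15 control cells, 3 UMIs on day 1 and 6 on day 7, with none in the other dendritic cells of any library. Its ratio was at least 47.9 in control and at least 3.15 on day 7. Marcksl1, a regulator of actin, had 42, 11 and 9 UMIs and was 15.9-fold (9.13 to 28.6), 5.30-fold (2.20 to 12.3) and 2.36-fold (0.750 to 8.06) higher. Of 3 list genes with enough UMIs it alone was called higher, against 4.4% of all genes. Tmem123, a membrane glycoprotein, had 38, 11 and 13 UMIs, against 18, 1 and 0 in other dendritic cells. It was 16.0-fold (8.90 to 29.8), 79.4-fold (11.5 to 3420) and at least 6.82-fold higher.

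NF-kB genes were 4.75-fold (3.85 to 5.85), 3.13-fold (2.12 to 4.54) and 4.29-fold (2.59 to 7.35) higher in sum. Traf1, an adaptor of TNF receptors, had 21, 11 and 13 UMIs and was 17.7-fold (7.76 to 43.8), 79.4-fold (11.5 to 3420) and 4.09-fold (1.37 to 14.7) higher. Relb, the subunit most tied to dendritic cell maturation, had 19, 6 and 5 UMIs and was 20.5-fold (8.27 to 57.8), 10.8-fold (2.57 to 52.2) and at least 2.62-fold higher. Nfkbia was 4.21-fold (3.01 to 5.85) higher in control, while its ratio was 1.18 (0.482 to 2.51) on day 1 and 2.67 (1.16 to 6.54) on day 7. It was the only one of the 14 list genes with enough UMIs and was not called. Nfkb1 had 2, 1 and 2 UMIs, so that the list rested on other members. The survival genes were 4.26-fold (3.29 to 5.48), 2.21-fold (1.30 to 3.60) and 5.24-fold (2.43 to 12.6) higher. Bcl2a1d, a BCL2 relative that NF-kB induces, had 29, 8 and 7 UMIs. It was the 1 gene called higher of 2 with enough UMIs, against 4.4% of all genes.

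The list of 22 other mature dendritic cell genes was above other dendritic cells beyond counting error but short of 2-fold, at 1.75-fold (1.64 to 1.87), 1.34-fold (1.20 to 1.49) and 1.80-fold (1.53 to 2.11). Cst3, with 772, 303 and 172 of the 1135, 408 and 329 UMIs, made up most of the sum and was near equal, at 1.27-fold (1.18 to 1.37), 1.05-fold (0.932 to 1.19) and 1.01-fold (0.832 to 1.23). Of 7 list genes with enough UMIs, 6 were called higher, against 4.4% of all genes, and Cst3 was the other one. The list was chosen with earlier results of these data known, so that this count is a description. In control, Samsn1 and Gadd45b passed the minimum of 20 UMIs through mature dendritic cells alone. Samsn1, an adaptor of immune receptor signalling, had 46, 11 and 18 UMIs and was 43.5-fold (20.3 to 107), 19.9-fold (5.89 to 85.5) and 5.66-fold (2.03 to 19.5) higher. Gadd45b, a stress and NF-kB target, had 39, 17 and 14 UMIs and was 59.1-fold (23.3 to 192), 20.5-fold (7.70 to 63.4) and at least 7.34-fold higher. Serpinb9, which blocks granzyme B, was 8.89-fold (4.91 to 16.2), 5.91-fold (2.16 to 15.7) and 11.0-fold (2.53 to 99.9) higher.

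Outside the lists, 4 further genes led the order. Epsti1, an interferon-induced gene, had 74, 27 and 16 UMIs and was 11.0-fold (7.59 to 16.0), 11.5-fold (6.03 to 22.4) and 25.2-fold (3.91 to 1056) higher. Tspan3, a tetraspanin, had 30, 14 and 25 UMIs and was 22.7-fold (10.8 to 52.1), 14.4-fold (5.46 to 42.3) and at least 13.1-fold higher. Txndc17, a thioredoxin-like protein, was 5.77-fold (3.52 to 9.36), 6.86-fold (3.46 to 13.5) and 5.11-fold (1.58 to 21.5) higher. Sqstm1, the autophagy receptor p62, was 5.68-fold (3.32 to 9.62) and 5.70-fold (2.70 to 11.8) higher in control and on day 1, and its interval on day 7 included 1.

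Antigen presentation differed between the classes of MHC. The ratio of the class I list to other dendritic cells was 1.83 (1.67 to 2.00), 1.85 (1.61 to 2.11) and 1.89 (1.51 to 2.36), and of 9 genes with enough UMIs 1 was called higher, the peptide editor Tapbp, and 1 lower, the peptide transporter Tap2, against 4.4% and 8.1% of all genes. B2m, the light chain of class I, had 253, 118 and 83 UMIs and ratios of 2.25 (1.95 to 2.60), 1.92 (1.55 to 2.36) and 2.25 (1.59 to 3.21). The class II list was at 0.862-fold (0.802 to 0.926) in control, 0.850-fold (0.763 to 0.945) on day 1 and 0.316-fold (0.254 to 0.389) on day 7. With the mixed cells left out it was at 0.903-fold (0.838 to 0.971), 1.16-fold (1.03 to 1.29) and 0.370-fold (0.292 to 0.464), so that the side of 1 on day 1 turned on the mixed cells. H2-DMa and H2-DMb1, whose products load peptides onto class II, were the 2 called lower of 7 members with enough UMIs, with 4, 3 and 1 UMIs against 128, 84 and 11, and with 1, 1 and 0 UMIs against 121, 55 and 10. H2-Eb2, a class II beta chain, went the other way, with 10, 13 and 0 UMIs against 2, 0 and 0.

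Genes of the cDC1 class had 45, 8 and 7 UMIs and those of the cDC2 class 0, 1 and 1. UMIs of Clec9a or Xcr1 were found in 4 control cells and in none after injury, and UMIs of Cd209a, Clec10a or Mgl2 in none. These genes chose the comparison cells, so that their ratios say nothing about the mature ones. Irf8, a transcription factor that cDC1 cells need, had 18, 4 and 5 UMIs and was 0.451-fold (0.264 to 0.725), 0.217-fold (0.0583 to 0.569) and 0.437-fold (0.127 to 1.22). Id2, a regulator that dendritic cells share, was 1.44-fold (1.09 to 1.89), 0.822-fold (0.437 to 1.43) and 0.922-fold (0.475 to 1.74). Plbd1, a phospholipase-like lysosomal protein, had 4, 2 and 1 UMIs against 251, 134 and 25, and Ppt1, a lysosomal thioesterase, had 2, 2 and 0 against 248, 133 and 12. Both passed the minimum through the other dendritic cells alone. Ly6e, a membrane-anchored surface protein, was 0.288-fold (0.163 to 0.473), 0.281-fold (0.133 to 0.525) and 0.0851-fold (0.00993 to 0.330). Most comparison cells were of the cDC1 gate, and whether Irf8, Plbd1, Ppt1 and Ly6e were low against cDC2 cells too was not tested.

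Cell division genes were low in control and on day 1, while the interval on day 7 included 1. The 6 genes together were 0.347-fold (0.244 to 0.480), 0.209-fold (0.0831 to 0.437) and 0.715-fold (0.195 to 2.23), and Hmgb2, a chromatin protein of dividing cells, had 20, 0 and 2 UMIs. Hmgb2 was the 1 gene called lower of 5 with enough UMIs, against 8.1% of all genes. The uptake and innate receptor list was 0.643-fold (0.535 to 0.768), 1.09-fold (0.866 to 1.36) and 0.674-fold (0.476 to 0.944), and without the mixed cells it was 0.682-fold (0.480 to 0.943) on day 1. Hsp90b1, a chaperone of the endoplasmic reticulum, had 31, 7 and 3 UMIs and was 0.379-fold (0.255 to 0.544), 0.278-fold (0.110 to 0.584) and 0.363-fold (0.0664 to 1.32). Ckb, a creatine kinase, had 2, 0 and 0 UMIs against 105, 53 and 3, and Plac8 had 11, 1 and 1 against 240, 85 and 29. For the matrix receptors, which include integrins, the intervals included 1, at 0.963-fold (0.705 to 1.29), 1.22-fold (0.757 to 1.89) and 0.865-fold (0.375 to 1.89).

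**Figure D3:**
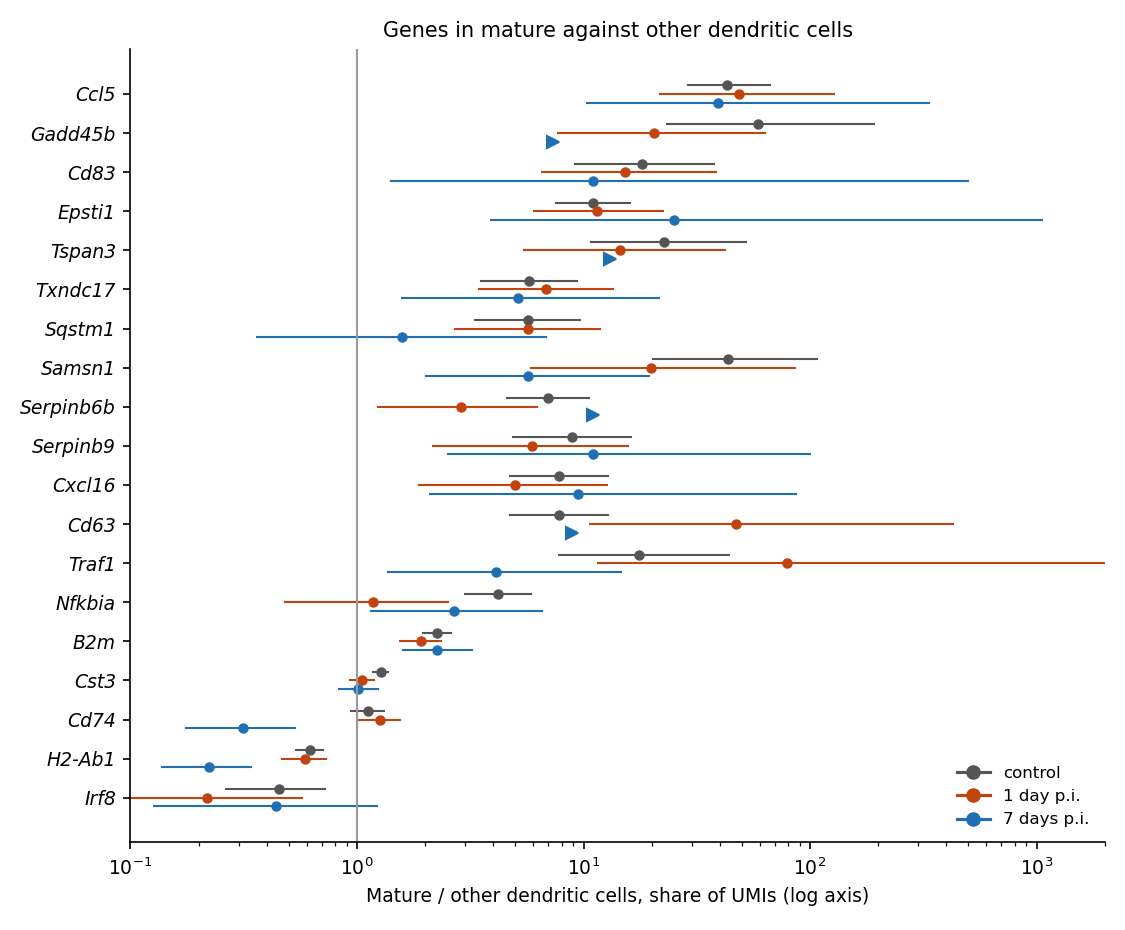
Ratio of the share of UMIs in mature to that in other dendritic cells of the same library (x axis, logarithmic) for 19 genes, with 95% counting intervals as lines (cut at the edges) and triangles for lower bounds where the other dendritic cells had no UMI. Ccl5 lies between 39.3 and 48.5 in the 3 libraries, Cst3 near 1, and Cd74 and H2-Ab1 are lower on day 7 than in the other libraries.

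Next, mature dendritic cells after injury were compared with those of the control, among genes with 20 or more UMIs in both sums together. On day 1, 14 of 334 genes were at least 2-fold higher (4.19%) and 53 were at least 2-fold lower (15.9%). The interval left out 1 for 11 and 30 of them, and the median ratio of all genes was 0.808. Without the mixed cells 15 genes were higher and 32 lower among 287 genes.

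The genes that were higher on day 1 included markers of other liver cells. Sepp1, the selenium carrier made by hepatocytes and Kupffer cells, had 10 UMIs in control and 27 on day 1, a ratio of 6.06 (2.84 to 14.0). Clec4f, a lectin of Kupffer cells, had 9 and 22 UMIs, a ratio of 5.49 (2.43 to 13.5), and Fcna, a ficolin, had 8 and 12, a ratio of 3.37 (1.27 to 9.50). All 3 were also higher in the other cells of the library, by 2.31-fold, 2.02-fold and 2.47-fold. With the mixed cells left out their ratios were 5.67 (2.26 to 15.5), 7.57 (2.18 to 33.0) and 7.57 (1.24 to 79.5). Ptprb, an endothelial phosphatase, had 5 and 17 UMIs, a ratio of 7.63 (2.70 to 26.5), and without the mixed cells its UMIs were 2 and 0. Lyz2, lysozyme, had 26 UMIs in each library, a ratio of 2.25 (1.25 to 4.02) that became 0.605 (0.150 to 1.81) without the mixed cells. Hepatocyte UMIs rose 25.4-fold (15.0 to 46.5) in the mature dendritic cells and 21.2-fold in the other cells on day 1, and their part in these ratios was not tested.

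The other 3 genes named as higher on day 1 were at least 2-fold higher also without the mixed cells. Prdx1, a peroxidase of the stress response, had 9 and 16 UMIs, a ratio of 3.99 (1.66 to 10.2), against 1.14 in other dendritic cells and 0.905 in other cells. Eef1g, a translation factor, had 9 and 14 UMIs, a ratio of 3.49 (1.41 to 9.15), against 1.09 and 0.922. H2-Eb2 had 10 and 13 UMIs, a ratio of 2.92 (1.18 to 7.44). Without the mixed cells the 3 ratios were 5.04 (2.07 to 13.1), 4.54 (1.71 to 12.8) and 3.93 (1.59 to 10.0). The difference from the other cells was not tested.

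Of the genes named as lower on day 1, 5 coding genes passed the minimum of 20 UMIs through control alone. Zfp36l1, which promotes decay of mRNAs, had 35 UMIs in control and 1 on day 1, a ratio of 0.0642 (0.00158 to 0.382). Ncoa7, an oxidation resistance gene, had 47 and 3 UMIs, a ratio of 0.143 (0.0285 to 0.445), and Lima1, an actin-binding protein, had 34 and 2, a ratio of 0.132 (0.0154 to 0.515). Cdkn1a, the cell cycle inhibitor p21, had 34 and 3 UMIs, a ratio of 0.198 (0.0389 to 0.630). Nfkbia had 59 and 8 UMIs, a ratio of 0.304 (0.126 to 0.640), against 1.09 in other dendritic cells and 0.843 in other cells. All 5 stayed below 0.5 without the mixed cells, at 0.0865, 0.193, 0.202, 0.209 and 0.319.

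Hmgb2 and noncoding RNAs completed the lower genes on day 1, and Hmgb2 and Gm26924 also passed the minimum through control alone. Hmgb2 had 20 UMIs in control and 0 on day 1, a ratio of at most 0.337 against the floor of 3 counts over the group, which was at most 0.908 when the mixed cells were left out. Gm26924, a noncoding RNA, had 39 and 3 UMIs, a ratio of 0.173 (0.0341 to 0.543). Malat1, a nuclear noncoding RNA, had 955 and 229 UMIs, a ratio of 0.538 (0.464 to 0.623), which was short of 2-fold, against 0.839 in other dendritic cells and 0.957 in other cells.

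By list, the mature dendritic cells on day 1 had less NF-kB, survival and chemokine RNA than in control. The ratios were 0.629 (0.435 to 0.890), 0.499 (0.299 to 0.798) and 0.634 (0.477 to 0.832). Without the mixed cells they were 0.794 (0.537 to 1.15), 0.599 (0.340 to 1.00) and 0.789 (0.585 to 1.05), with intervals that reached 1. Of 3 genes with enough UMIs in each of these lists, 1 was called lower, namely Nfkbia, Cflar, which blocks caspase 8, and Ccl17, against 15.9% of all genes. In the other cells the 3 lists were at 0.806, 0.666 and 0.771, beside a median ratio of 0.808 over all genes in mature dendritic cells. The migration list was at 0.605 (0.425 to 0.845), at 0.703 (0.475 to 1.02) with the mixed cells left out, and at 0.615 in other cells. Regulators of the dendritic lineage were at 0.508 (0.312 to 0.798), and at 0.545 (0.310 to 0.906) when the mixed cells were left out, and both genes with enough UMIs, Id2 at 0.491 (0.254 to 0.885) and Irf8 at 0.499 (0.123 to 1.51), were called lower. In other dendritic cells this list was at 0.999 (0.879 to 1.13). Il4i1 at 0.416 (0.125 to 1.10) and Cacnb3 at 0.355 (0.0672 to 1.20) were also past 2-fold, with intervals that included 1. The list of 22 genes had 0.807 (0.719 to 0.905) and 1.04 (0.921 to 1.17) without the mixed cells, which the list itself had defined, and 3 of its 11 genes with enough UMIs were called lower, against 15.9% of all genes. MHC class II was at 1.02 (0.903 to 1.15) and at 1.32 (1.17 to 1.5) with the mixed cells left out, while it was at 0.498 in the other cells of the library.

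On day 7, 43 of 318 genes were at least 2-fold higher (13.5%) and 50 were at least 2-fold lower (15.7%). The interval left out 1 for 31 and 28 of them, and the median ratio of all genes was 1.00. Higher genes were thus 46.2% of the calls, a share that was 28.0% when mitochondrial and hepatocyte genes were left out of the total (28 higher and 72 lower), and 14.2% with median-of-ratios size factors (16 higher and 97 lower). These scalings multiply every ratio on day 7 by 0.868 and 0.744, or shift it by −0.20 and −0.43 on the log2 scale. Without the mixed cells 39 genes were higher and 45 lower among 275 genes.

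Neutrophil genes led the higher genes on day 7. S100a8, a subunit of calprotectin, had 11 UMIs in control and 181 on day 7, where 12 of 13 cells had it, a ratio of 63.4 (34.6 to 129). S100a9, the other subunit, had 11 and 111 UMIs, a ratio of 38.9 (20.9 to 80.1), and Retnlg had 2 and 20, a ratio of 38.5 (9.35 to 340). Cxcl2, a chemokine that attracts neutrophils, had 2 and 26 UMIs, a ratio of 50.1 (12.5 to 435). In the other cells of the library the ratios were 10.8, 9.86, 12.8 and 90.1. In mature dendritic cells other than the mixed ones they were 21.3, 11.5, 17.5 and 20. All of these genes passed the minimum of 20 UMIs through day 7 alone. The part of neutrophil RNA in their ratios was not tested.

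The other 4 genes named as higher on day 7 are not on the list of neutrophil markers. Fth1, the ferritin heavy chain, had 54 and 84 UMIs, a ratio of 5.99 (4.21 to 8.59), and was 5.06-fold higher in the other cells too. Pnrc1, a nuclear receptor coregulator, had 7 and 17 UMIs, a ratio of 9.35 (3.69 to 26.7), against 3.03 in other cells. Tspan3 had 30 and 25 UMIs, a ratio of 3.21 (1.81 to 5.64), and Fabp5, a fatty acid carrier, had 16 and 22, a ratio of 5.29 (2.66 to 10.8). In the other cells their ratios were 1.43 and 1.38. With the mixed cells left out they were 4.03 (2.16 to 7.45) for Tspan3 and 3.12 (1.27 to 7.31) for Fabp5. Both genes were at least 2-fold higher under all 3 scalings.

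MHC class II was lower in mature dendritic cells on day 7. The list had 851 UMIs in control (2.37%), 387 on day 1 (2.42%) and 108 on day 7 (1.16%), with a median per cell of 14, 18 and 9 UMIs and a highest of 102, 47 and 18. The ratio of day 7 to control was 0.489 (0.396 to 0.598), and 0.546 (0.433 to 0.681) without the mixed cells. Of the 13 cells on day 7, 9 had at least 3 neutrophil markers. Without the mixed cells 88 neutrophil UMIs (1.35%) were left. The cells with 172, 55 and 34 neutrophil UMIs held 6, 3 and 7 class II UMIs of 1313, 1044 and 865. Those with 2, 3, 4 and 4 held 12, 0, 18 and 13 of 577, 407, 503 and 316. Without cells with 3 or more other-class UMIs 1 cell was left. The part of neutrophil RNA in the ratio was not tested. In the other dendritic cells the ratio was 1.33 (1.22 to 1.46), and in other cells 0.585 (0.576 to 0.594). The ratios in mature and other dendritic cells lay on opposite sides of 1 under scaling by all UMIs, and the difference was not tested.

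Of 5 class II genes with enough UMIs, H2-Eb1, H2-Ab1 and Cd74 were those whose intervals left out 1. H2-Eb1, a class II beta chain, had 210, 67 and 19 UMIs, a ratio of 0.348 (0.206 to 0.558) on day 7. H2-Ab1, another beta chain, had 220, 89 and 24, a ratio of 0.420 (0.263 to 0.642). Cd74, the invariant chain, had 167, 103 and 17, a ratio of 0.392 (0.223 to 0.647). As a mean over cells the 3 ratios were 0.508, 0.601 and 0.477, so that the first 2 were short of 2-fold. In the other dendritic cells the ratios of these genes were 1.14, 1.17 and 1.39. H2-Eb1 and Cd74 passed the minimum of UMIs through control alone. H2-Aa, an alpha chain, had 183, 89 and 41 UMIs and a ratio of 0.863 (0.599 to 1.22), so that it was not lower beyond counting error. In all 4 of these 5 genes were called lower, with Ctss, a protease that cuts the invariant chain, as the fourth at 0.492 (0.172 to 1.15), against 15.7% of all genes. When the mixed cells were left out Ctss was at 0.525, short of 2-fold.

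Further genes were lower on day 7. Apoe, the apolipoprotein abundant in Kupffer cells and hepatocytes, had 130 UMIs in control, 81 on day 1 and 5 on day 7, a ratio of 0.148 (0.0473 to 0.355), against 0.411 in other cells. Ncl, nucleolin, had 37 and 1 UMIs, a ratio of 0.104 (0.00257 to 0.617), and Rrbp1, a ribosome receptor, had 31 and 1, a ratio of 0.124 (0.00305 to 0.745). Atrx, a chromatin remodeller, had 45 and 2 UMIs, a ratio of 0.171 (0.0201 to 0.655). Il12b, a gene of the rule, had 130 and 11 UMIs. Its ratio of 0.326 (0.159 to 0.603) is a description only. Apoe, Ncl, Rrbp1, Atrx and Il12b all passed the minimum of UMIs through control alone. When the mixed cells were left out, Ncl and Rrbp1 had no UMI on day 7.

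Several lists of cell state were higher on day 7. The immediate early genes had 20 UMIs in control and 39 on day 7, a ratio of 7.51 (4.27 to 13.6), against 2.04 (1.40 to 2.88) in other dendritic cells and 3.53 in other cells, and none of its 11 genes had enough UMIs for a call. The genes of low oxygen and glycolysis had 31 and 43 UMIs, a ratio of 5.34 (3.29 to 8.77), against 3.64 and 5.41. Gapdh, at 11 UMIs each, was the 1 gene with enough UMIs and was called higher at 3.85-fold, as were 13.5% of all genes. The interferon-induced genes had 30 and 20 UMIs, a ratio of 2.57 (1.38 to 4.67), against 1.31 and 3.02. NF-kB genes had a ratio of 1.54 (1.12 to 2.09), against 1.71 and 2.06. Traf1 was the only one of 3 with enough UMIs called higher, at 2.38 (1.10 to 4.99), while 13.5% of all genes were. Under both other scalings the interval of the NF-kB list would include 1, and with size factors Traf1 would be short of 2-fold. All these lists were higher in the other cells as well. With the mixed cells left out the ratios were 5.74 (3.01 to 11.0), 3.61 (1.96 to 6.56), 3.79 (1.97 to 7.17) and 1.56 (1.08 to 2.20).

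The list of 22 genes differed little on day 7 under scaling by all UMIs, at 1.12 (0.984 to 1.26). MHC class I, costimulation and inhibitory genes had ratios of 1.17 (0.985 to 1.38), 0.811 (0.396 to 1.53) and 0.994 (0.535 to 1.74). None of these intervals left out 1. With the mixed cells left out, that of MHC class I did, at 1.27 (1.05 to 1.53). With size factors the ratios of the list of 22 genes and of MHC class I would lie below 1. The interval of the list of 22 genes would then leave out 1, and that of MHC class I would include it.

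**Figure D4:**
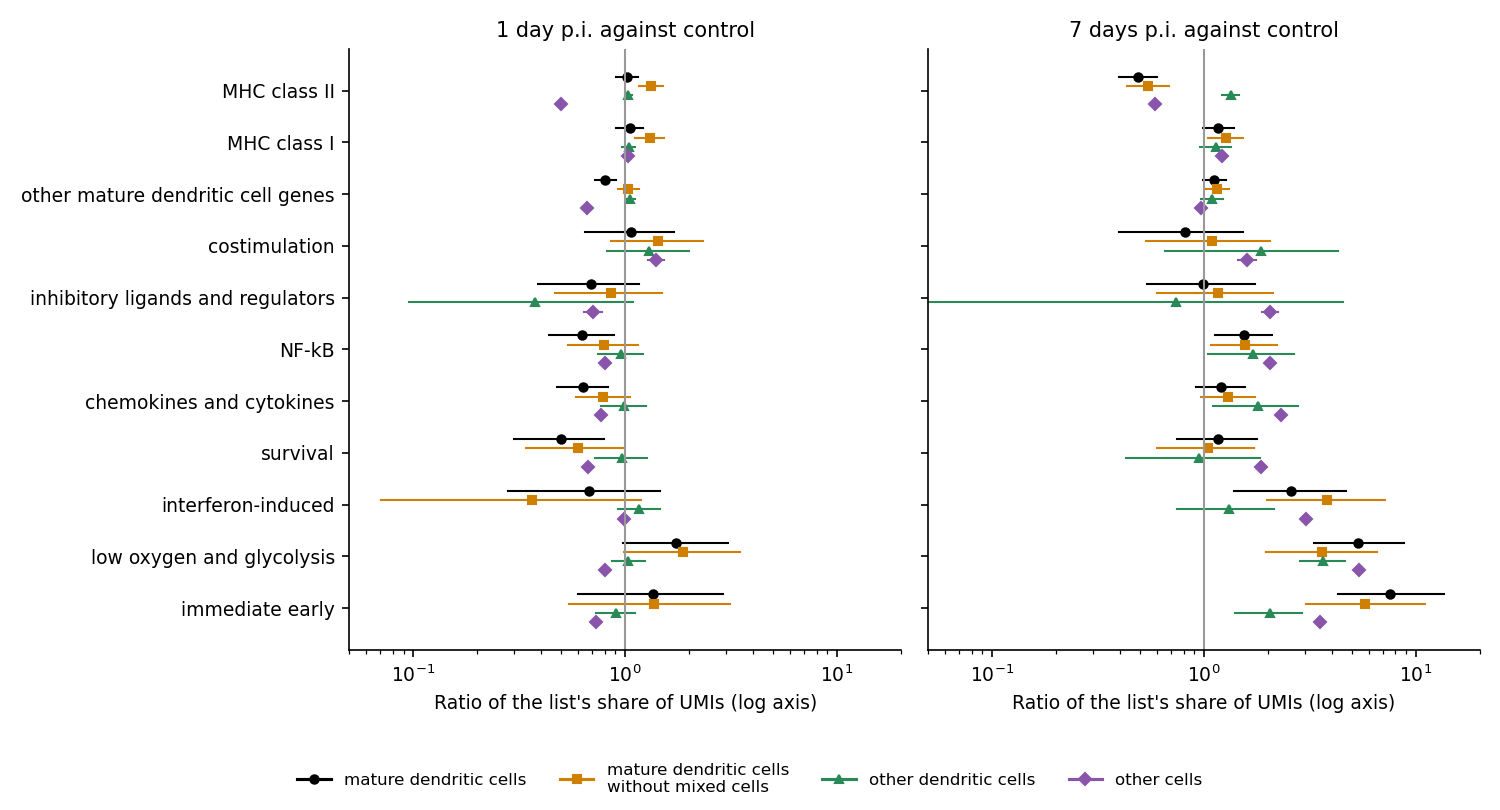
Share of UMIs of 11 gene lists on day 1 (left) and day 7 (right) as a ratio to control (x axis, logarithmic), with 95% counting intervals as lines, in mature dendritic cells, in the same without mixed cells, in other dendritic cells and in other cells. MHC class II on day 7 is at 0.489 in mature dendritic cells and 1.33 in other dendritic cells.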

How the data were processed

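Drop-seq libraries of control liver, liver on day 1 and liver on day 7 were used, 1 per condition, with groups taken from the labels. The authors deposited unnormalized UMI counts per gene and barcode. Per the file headers, these counts were made with the Drop-seq tools from sense-strand reads of mapping quality 10 or more on coding and untranslated bases, and UMIs were merged at an edit distance of 1. The headers name a minimum of 200 genes, yet barcodes with 11 genes are present. The submitters' processing notes name STAR 2.5.2a and the genome build hg19, a human build, while the gene symbols are those of mouse. The annotation is not given in the sources used here.

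Barcodes with at least 200 genes were taken as cells. The gate and the comparison gates are given with the results. Doublets were not called, and cells with UMIs of other classes were left out in 2 alternatives. UMIs were summed over the cells of a gate and library, scaled to 1000000 and compared as ratios. Shares have exact binomial (Clopper-Pearson) intervals and ratios conditional binomial ones, at 95%. PCR reads and droplets add error that these intervals do not cover. A sum of 0 was set to a floor of 3 counts over the group to give a bound, and pairs of sums of at most 3 got no ratio. With 1 library per condition no test was made. Called were genes past 2-fold with at least 20 UMIs in both sums together, so that 1 sum alone could pass a gene. Named were the genes of the rule, genes of 16 lists of cell state and 15 of cell class, and the genes whose interval bound nearest 1 lay farthest from it (in the weakest library): 10 in each direction against other dendritic cells and 8 against control, without mitochondrial, ribosomal protein, haemoglobin and hepatocyte genes. Cd40, Cd80, Cd86, Cd274, Cd200 and Nfkb1 had too few UMIs for this rule and were named as list members for completeness. The cells and lists were chosen with earlier results of these data known. The steps were tested on simulated data. Promoters were read from a RefSeq table by gene symbol. Python 3.11.15, numpy 2.4.6, scipy 1.17.1 and matplotlib 3.10.9 were used.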

Additional observations from a re-analysis of the deposited data

How the results depend on the processing

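With 1 library per condition no library could be left out. No paired analysis was possible because each group had 1 library. Of 72 values for shares and counts of genes, 35 stayed within their error or within 1.5-fold of the count and 37 moved. Of 628 values for single genes, 559 stayed within their interval, 64 moved and 5 changed direction, and 27 further ones gave only a bound on the far side of 1 and no value. With at least 3 of the 4 markers the shares were 0.106%, 0.0865% and 0.0533% in control, on day 1 and on day 7, genes lower on day 1 numbered 14, genes higher and lower on day 7 13 and 22, and genes lower than in other dendritic cells 14. With every deposited barcode the shares were 0.287%, 0.121% and 0.104%. Thinning gave 0.226% in control and 0.123% on day 1, and 300 genes per barcode gave 0.362% on day 1 and 0.488% in control. Without cells with 3 or more other-class UMIs the shares were 0.289%, 0.0865% and 0.0178%, the last from 1 cell, and genes lower numbered 18 on day 1, 4 on day 7 and 15 against other dendritic cells. Without cells over 20% mitochondrial UMIs the share was 0.349% on day 1 and 0.504% in control, and 33 genes were lower on day 1. Without the mixed cells, an alternative chosen after seeing the data, 32 genes were lower on day 1. With a minimum of 50 UMIs 2 genes were higher and 9 lower on day 1, 12 and 18 on day 7, and 6 and 28 against other dendritic cells. With a minimum of 10 UMIs they were 65 and 152, 119 and 114, and 82 higher against other dendritic cells. The mean over cells gave 24 higher genes on day 1. On day 7 totals without mitochondrial and hepatocyte genes gave 28 higher genes, and size factors 16 higher and 97 lower. The direction changed for Lyz2 on day 1, at 0.906 without cells over 20% mitochondrial UMIs and 0.605 without the mixed cells, for Atrx on day 7, at 1.15 with 3 of 4 markers, and for Il12b and Cd74 on day 7, at 1.33 and 1.60 in the 1 cell left without 3 other-class UMIs. A minimum of 50 UMIs left 136 of 334 genes on day 1 and 129 of 318 on day 7. Against other dendritic cells it left 281 of 864 genes. The cause of the changes was not tested. The number of cells, 13 on day 7, limits the precision of every value there.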
